A study of Homo sapiens with 23 samples.

Results

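The clustered replication-dependent histone genes are the 68 genes that supply the bulk of newly made histone during DNA replication. They were chosen by annotation alone: every protein-coding gene of GENCODE 44 on chromosomes 1 and 6 whose symbol is H1-1 to H1-6, or H2AC, H2BC, H3C or H4C followed by a number, out of 20033 protein-coding genes on chromosomes 1 to 22, X and Y. There are 6 genes for the linker histone H1, 17 for H2A, 18 for H2B, 13 for H3 and 14 for H4.

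As background, the core histones H2A, H2B, H3 and H4 form the spool of the nucleosome and H1 binds the DNA that enters and leaves it. Their replication-dependent genes lack introns in the main, stand in clusters, are switched on together as cells enter S phase through the coactivator NPAT, and give mRNAs that end in a stem-loop bound by SLBP instead of a poly(A) tail. Acylation of lysine 18 of H3 (H3K18) and lysine 12 of H4 (H4K12) is found at active promoters. The H3 and H4 genes thus encode the carriers of the marks, and genes of all 5 histone types can themselves lie in marked chromatin.

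The marks were mapped by ChIP-seq, the sequencing of chromatin fragments enriched with an antibody to 1 mark, in SW480, an established human epithelial line from a colorectal cancer, which all groups share. H3K18pr and H4K12pr (propionyl) came from cells under sodium propionate (NaPr) at 10 mM, and H3K18bu and H4K12bu (butyryl) from cells under sodium butyrate (NaBu) at 1 mM. H3K18ac and H4K12ac (acetyl) were mapped in NaPr-treated, NaBu-treated and untreated cells. These are 10 groups of 2 replicate libraries each, beside 3 input libraries of chromatin without immunoprecipitation, 1 for each condition. Butyrate is also known as an inhibitor of histone deacetylases and propionate as a weaker one. The acyl marks have no library from untreated cells, and all results come from 1 cell line.

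The 68 genes lie in 5 clusters on hg38, joined where neighbouring members were less than 500000 bp apart. The largest spans chr6:25722897-26286138 (563242 bp) and holds 34 members, 5 of H1, 5 of H2A, 9 of H2B, 7 of H3 and 8 of H4, among 8 other protein-coding genes. Another 16 members lie in chr6:27806979-27894391 and 5 in chr6:27125397-27148062. On chromosome 1, 11 members lie in chr1:149782189-149888465 and 2 in chr1:228434277-228463604. The genes are short, with a median length of 502 bp against 27471 bp for all protein-coding genes. Because they are also crowded, the windows of 46 members (gene body with 500 bp added on either side) overlap that of another member, and 12 H2A and H2B pairs are divergent, with starts 169 to 250 bp apart. Neighbouring members are therefore not independent observations, since 1 peak can be counted for several genes.

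Promoter sequences show what the members share, and 6 are printed here: those of the 3 genes that held a peak in all 20 immunoprecipitated libraries (H1-4, H1-2 and H4C8), and 3 single-copy genes that held one in none (H1-1, H2BC1 and H1-6, the last chosen after its values were seen). H1-4 (chr6:26156079-26156378, plus strand), H1-2 (chr6:26056421-26056720, minus strand), H4C8 (chr6:26285485-26285784, minus strand), H1-1 (chr6:26017738-26018037, minus strand), H2BC1 (chr6:25726527-25726826, plus strand) and H1-6 (chr6:26108086-26108385, minus strand) are given from RefSeq on GRCh38.p14, each 300 bases from 250 before to 50 after the RefSeq start, 5′ to 3′ on the strand of the gene. The RefSeq start of H4C8 lies 104 bp from that of GENCODE. Capitals mark every match, on either strand, to 4 motifs known from histone promoters: the TATA box TATAAA, the CCAAT box CCAAT, the octamer ATTTGCAT and the H1 box AAACACA.
H1-4: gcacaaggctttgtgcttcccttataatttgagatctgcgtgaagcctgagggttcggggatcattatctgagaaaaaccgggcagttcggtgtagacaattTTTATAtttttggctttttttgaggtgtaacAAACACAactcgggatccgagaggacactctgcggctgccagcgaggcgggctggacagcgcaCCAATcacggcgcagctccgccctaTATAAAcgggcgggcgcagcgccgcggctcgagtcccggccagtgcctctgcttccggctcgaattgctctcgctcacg
H1-2: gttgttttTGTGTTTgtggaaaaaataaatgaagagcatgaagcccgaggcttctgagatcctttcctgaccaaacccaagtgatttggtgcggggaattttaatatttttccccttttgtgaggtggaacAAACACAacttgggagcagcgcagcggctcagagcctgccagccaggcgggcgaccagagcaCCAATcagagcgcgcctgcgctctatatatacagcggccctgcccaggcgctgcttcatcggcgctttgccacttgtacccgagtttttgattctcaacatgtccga
H4C8: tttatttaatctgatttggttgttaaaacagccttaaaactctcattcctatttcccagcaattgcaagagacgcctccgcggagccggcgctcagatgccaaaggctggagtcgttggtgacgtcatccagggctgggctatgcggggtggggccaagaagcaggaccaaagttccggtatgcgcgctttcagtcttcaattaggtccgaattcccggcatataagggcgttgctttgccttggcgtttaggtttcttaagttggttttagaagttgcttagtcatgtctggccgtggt
H1-1: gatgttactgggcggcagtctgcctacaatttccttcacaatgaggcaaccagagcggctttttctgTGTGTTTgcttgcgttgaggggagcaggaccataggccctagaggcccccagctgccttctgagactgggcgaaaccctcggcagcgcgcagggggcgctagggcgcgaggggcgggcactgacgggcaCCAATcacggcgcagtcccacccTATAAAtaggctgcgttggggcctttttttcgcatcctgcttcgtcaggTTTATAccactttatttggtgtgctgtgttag
H2BC1: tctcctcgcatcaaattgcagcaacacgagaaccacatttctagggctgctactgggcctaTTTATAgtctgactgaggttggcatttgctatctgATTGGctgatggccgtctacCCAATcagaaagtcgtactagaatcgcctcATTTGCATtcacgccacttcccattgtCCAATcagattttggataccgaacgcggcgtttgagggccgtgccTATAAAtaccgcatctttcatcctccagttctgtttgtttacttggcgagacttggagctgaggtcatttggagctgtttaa
H1-6: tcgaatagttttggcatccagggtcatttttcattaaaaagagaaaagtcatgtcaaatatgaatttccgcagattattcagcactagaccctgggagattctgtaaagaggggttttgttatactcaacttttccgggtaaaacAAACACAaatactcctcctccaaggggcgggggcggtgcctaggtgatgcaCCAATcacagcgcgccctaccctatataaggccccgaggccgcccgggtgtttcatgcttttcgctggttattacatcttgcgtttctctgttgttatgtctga
RefSeq promoters were matched for 63 of the 68 members (not H4C1, H4C3, H2AC12, H3C11 and H3C12). The octamer, the binding motif of POU2F1, was in 26 of the 63 (41.3%), against 1.77% of 35116 promoters of the same length, and almost all of those were H2A (11 of 16) or H2B (14 of 18). The CCAAT box was in all 6 H1, 16 H2A, 18 H2B and 11 H3 promoters but in 3 of 12 of H4, and in 34.6% of all promoters. TATAAA was in 41 of 63 (65.1%), against 11.5%, and the H1 box in all 6 H1 promoters, against 5.64% of all promoters. In H1-1 the only H1 box match was on the reverse strand, at −183 bp from the start. The other H1 promoters had a forward match at −119 to −105 bp. Of the 11 members that held no peak in any immunoprecipitated library, 7 had TATAAA, 8 the CCAAT box, 2 the octamer and 4 the H1 box. These letters thus also occur in promoters without a peak, with the octamer in 18.2% of them against 46.2% of the other matched promoters. For some of the 11, named below, reads cannot be placed at 1 position, so the lists cannot show whether they were marked. Whether the letters bear on the missing peaks was not tested. Of the 52 other members with a matched promoter, 34 had TATAAA, 46 the CCAAT box, 24 the octamer and 5 the H1 box. Windows of divergent pairs overlap, so 1 match can be counted for both genes, and a match describes letters and not a bound site.

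The 3′ stem-loop was searched as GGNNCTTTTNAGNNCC within 200 bases after the stop codon and was found in 65 of 68 members (not H3C6, H2BC10 and H4C13), with its first base 23 to 68 bases after the stop codon (median 37). Only 7 different sequences were found, and the 4 that occurred in more than 1 member are shown, because they separate H4 from the other histones. Capitals mark the 6 bases of each arm of the stem and small letters the loop of 4.
Stem-loop of 40 members of H1, H2A, H2B and H3: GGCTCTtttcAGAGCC
Stem-loop of 9 members of H4: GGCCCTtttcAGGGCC
Stem-loop of 9 members of H1, H2A, H2B and H3: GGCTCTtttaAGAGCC
Stem-loop of 4 members of H4: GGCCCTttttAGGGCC
All 11 members without a peak in any immunoprecipitated library have the stem-loop.

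A library is represented by its list of peaks, and a peak by its fold over the local background and its −log10 p (how unlikely that enrichment is under the local background), both as the caller gave them. The lists held 8158 (H4K12bu replicate 2) to 208823 peaks (H4K12ac untreated replicate 1), and a short list holds fewer genes of any kind, so shares are also given for the 8158 strongest peaks of each library, ranked by −log10 p. The names of the deposited lists of the 4 acetyl libraries labelled NaBu hold cnt, as the 4 untreated lists do, where the 4 butyryl lists hold but. The groups here follow the labels, and which of the names or labels is right was not settled by the files used here, so every NaBu acetyl value is that of a library labelled NaBu. Run tags in the names of the lists, which the labels do not explain, divide the libraries in 3: propionyl libraries, NaPr and untreated acetyl libraries, and all NaBu libraries. Differences between propionyl and acetyl lists, or between NaBu and untreated lists, therefore cannot be told apart from the run tag. One library stood apart: H3K18ac NaPr replicate 1 shared 0.202 of the combined bp with its own replicate but 0.268 to 0.332 with the 4 untreated acetyl libraries, and results that use it are given without it too. Of 10 markers of colon epithelium, 40.0% to 90.0% held a peak at their start in the immunoprecipitated libraries, and of 10 markers of other cell types 0% to 40.0%.

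A member is said to hold a peak where at least 1 bp of a peak falls in its window. Of the 68 members, 57 held a peak in at least 1 of the 20 immunoprecipitated libraries, 17 in 15 or more and 3 in all 20, while 11 held none. In inputs, 45 members held no peak, 20 held one in 1 list, 2 in 2 lists and 1, H2BC5, in all 3. The NaPr, NaBu and untreated inputs held 11, 8 and 8 members.

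**Figure D1:**
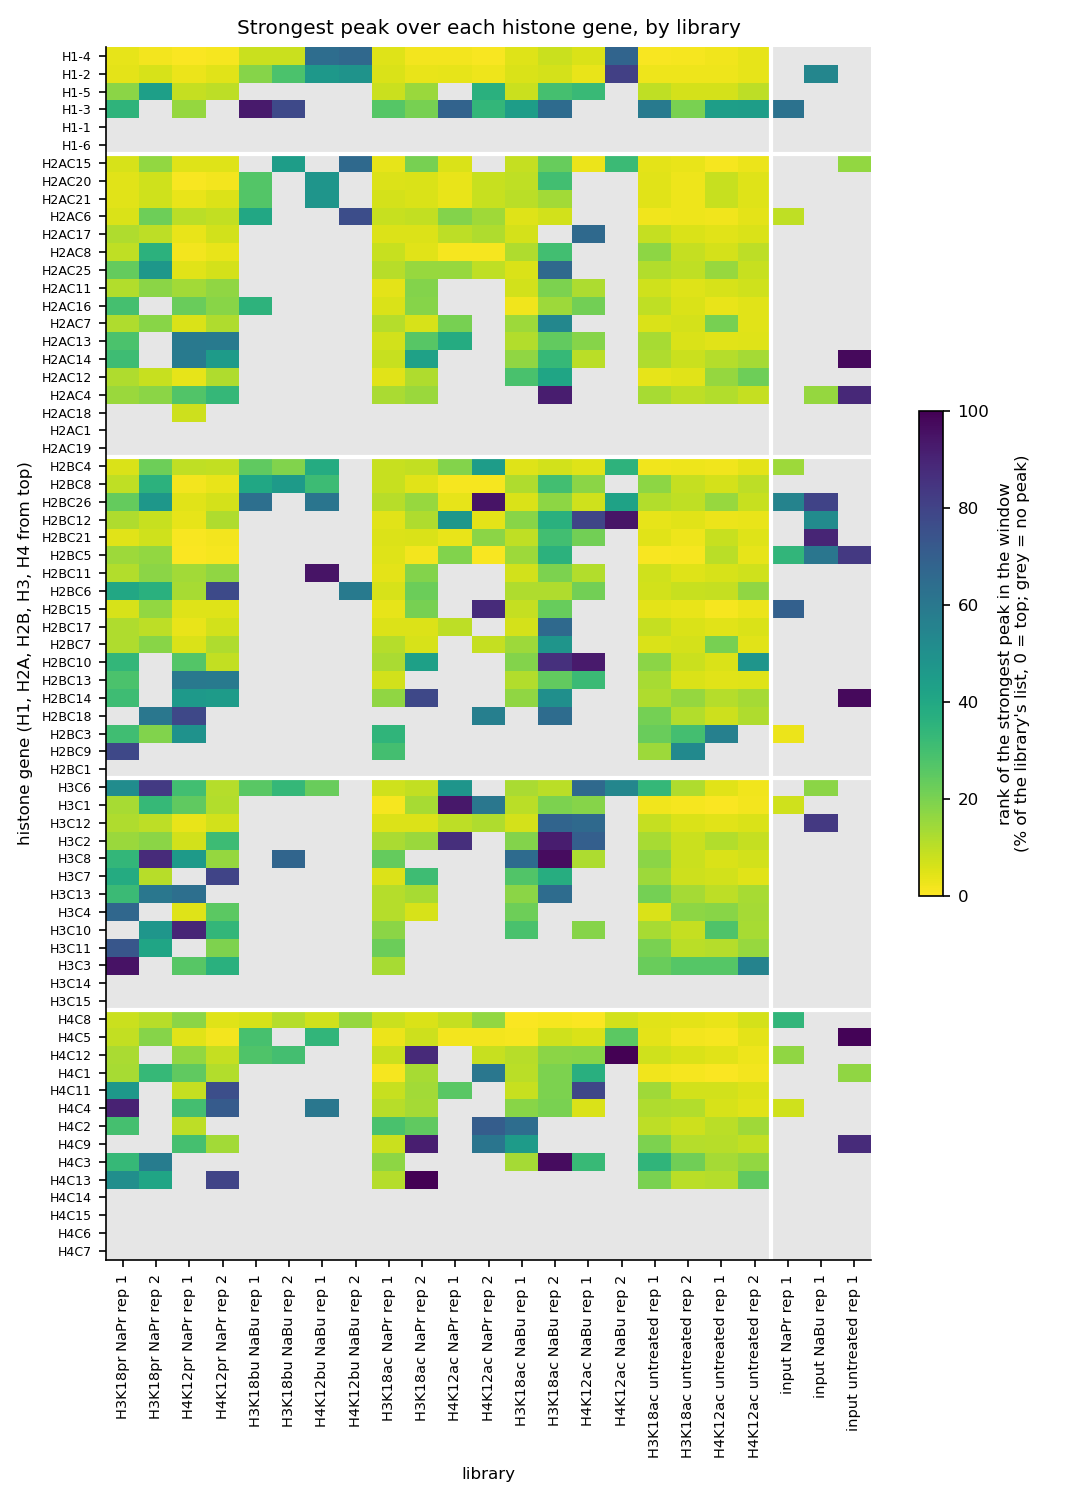
Heat map of the 68 histone genes (1 line each, by histone type) in the 23 libraries (columns), coloured by the rank of the strongest peak in the gene window as a percentage of the list (low is strong); grey means no peak. H1-4, H1-2 and H4C8 are coloured in all 20 immunoprecipitated libraries and 11 genes are grey in all 20, while the butyryl and H4K12ac columns of treated cells are grey for most genes.

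Among the 6 H1 genes, which encode linker histones, 2 held a peak in all 20 libraries, 2 in 14 and 2 in none. H1-4 (chr6:26156329-26157115) carried a fold of 19.0 and 18.8 in the replicates of H3K18pr, 17.9 and 13.7 in H4K12pr, 6.48 and 7.05 in H3K18bu and 3.34 and 3.13 in H4K12bu. For the acetyl marks its fold was 5.29 and 9.80 (H3K18ac) and 3.79 and 4.14 (H4K12ac) in NaPr, 10.5 and 9.52 (H3K18ac) and 6.25 and 3.34 (H4K12ac) in NaBu, and 37.3 and 16.2 (H3K18ac) and 5.95 and 5.28 (H4K12ac) in untreated cells. H1-4 was thus held in every immunoprecipitated library and in no input, and stayed among the 8158 strongest peaks in 19 of 20. Its median percentile of peak strength among all protein-coding genes, taken in the window from 500 bp before to 1000 bp after the start, was 95.0. H1-2 (chr6:26055740-26056470) was also held in 20 of 20, in 18 among the 8158 strongest. Its folds ran from 2.91 (H4K12ac NaPr replicate 2) to 24.5 (H3K18ac untreated replicate 1). It also held a peak in the NaBu input, with a fold of 3.18. H1-1 (chr6:26017032-26017787) held none, although all of its 50-base words were single-copy in the genome and its nearest peak lay at a median of 2729 bp.

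Among the H2A genes, H2AC15 (chr6:27837880-27838375) was held in 17 of 20 libraries and H2AC20 (chr1:149886918-149887411) in 16. H2AC15 also held a peak in the untreated input, with a fold of 1.93. The fold of H2AC20 was 16.1 and 8.40 in H3K18pr and 13.8 and 12.6 in H4K12pr, against 4.35 and 4.28 in H3K18ac and 3.14 and 2.52 in H4K12ac of the same NaPr treatment. In untreated cells it was 18.1 and 9.83 (H3K18ac) and 3.09 and 3.83 (H4K12ac). At both histone sites the propionyl replicates thus lay above the NaPr acetyl replicates, though a fold depends on the depth of its library and input. In NaBu the H2AC20 window held a peak in 1 of 2 replicates of H3K18bu and of H4K12bu, in both of H3K18ac (6.36 and 4.77) and in neither of H4K12ac. H2AC19, in the largest chromosome 1 cluster, held none, but none of its 50-base words was single-copy.

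Among the H2B genes, H2BC4 (chr6:26086317-26123926) was held in 19 of 20 libraries and H2BC8 (chr6:26216200-26216688) in 18. The H2BC4 window also held a peak in the NaPr input, with a fold of 3.56. The annotated body of H2BC4 is 37610 bp long and overlaps the windows of 3 other members, and in the window around its start it was held in 16. The fold of H2BC8 was 8.99 and 3.53 in H3K18pr and 8.25 and 6.70 in H4K12pr. In H3K18ac it had 3.47 and 4.97 in NaPr and 7.46 and 4.44 in untreated cells, so that for H3K18 the replicate ranges overlapped. For H4K12ac it had 3.96 and 3.34 in NaPr and 3.88 and 2.95 in untreated cells, all under both H4K12pr values. H2BC1 held no peak in any library, and its nearest peak lay at a median of 122159 bp.

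Among the H3 genes, H3C6 (chr6:26224199-26227473) was held in 18 of 20 libraries and H3C1 (chr6:26020451-26020958) in 15. The H3C6 window also held a peak in the NaBu input, with a fold of 4.39. That is above its NaBu folds in the butyryl (4.05 to 4.10) and H4K12ac lists (3.57 and 3.03) and below those in H3K18ac (5.97 and 7.47). H3C1 had a fold of 22.3 and 13.3 in H3K18ac and 7.36 and 6.08 in H4K12ac of untreated cells, and was the strongest of all members in 3 of these 4 libraries, at rank 1498 to 2999. In NaPr its H3K18ac fold was 7.99 in replicate 1 and 3.23 in replicate 2, and its H4K12ac fold was 1.71 and 1.93. The 7.99 belongs to the library that stood apart, the only NaPr list in which H3C1 was the strongest member. H3C1 held no peak in the 4 butyryl lists, and its NaPr input window held a peak with a fold of 3.19. H3C14 held none, with no single-copy word.

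Among the H4 genes, H4C8 (chr6:26277609-26285638) was held in 20 of 20 libraries and H4C5 (chr6:26204610-26205021) in 18. H4C8 was the strongest of the 68 members in 7 of the 8 libraries labelled NaBu and in none of the 8 NaPr or 4 untreated ones. Of the 8, the 4 acetyl libraries are those whose list names hold cnt, and H4C8 was the strongest member in all 4 of them and in 3 of the 4 butyryl libraries. Its NaBu ranks were 372 and 794 for H4K12ac, 626 and 874 for H3K18ac, 693 and 1309 for H4K12bu, and 1298 and 2529 for H3K18bu. The H4C8 window ranked 3332 and 6658 in H3K18ac and 7306 and 12695 in H4K12ac of untreated cells, behind all NaBu ranks. In NaPr it ranked 16566 and 5323 (H3K18ac), 12660 and 21257 (H4K12ac), 7688 and 10315 (H3K18pr) and 28973 and 6042 (H4K12pr). As percentages of list length the untreated ranks were 4.33 and 4.29 (H3K18ac) and 3.50 and 6.64 (H4K12ac). The butyryl ones, 5.88 and 11.2 (H3K18bu) and 7.19 and 16.0 (H4K12bu), were then mostly behind these. Those of NaBu acetyl were 0.538 and 1.45 (H3K18ac) and 0.420 and 6.80 (H4K12ac). Lists of unlike length and run, and labels that the list names do not bear out, are compared here, and H4C8 was picked out for this pattern after its values were seen, so it is a description. H1-4 was the strongest member in 8 libraries, 6 of them NaPr, H3C1 in 4 and H2BC8 in 1, with ranks of the strongest member between 372 and 3383. H4C14 held none and 0.571% of its words were single-copy.

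By histone type, counting only the 60 members of which at least 50% of the 50-base words occur once in the genome, the median number of libraries that held a member was 14.0 for H1 (6 genes), 13.0 for H2A (15) and H2B (17), 12.0 for H3 (10) and 11.5 for H4 (12). The share of H2A genes held was above that of H4 genes in 15 of 20 libraries, and H3 was above H4 in 14. Although H1 had the highest median, the shares of H2A and of H2B were each above that of H1 in 13. H2A and H2B, whose genes share windows, were each the higher in 11 and 9 libraries.

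The 11 genes without a peak fell in 2 kinds. For 5 of them, H4C14, H4C15, H3C14, H3C15 and H2AC19, under 1% of the words were single-copy, and reads from them cannot be placed at 1 position, so the lists cannot show whether they were marked. The other 6, H1-1, H1-6, H2AC1, H2BC1, H4C6 and H4C7, were at least 95.1% single-copy. H4C15, H3C15, H1-6, H2AC1, H4C6 and H4C7 are named after their values were seen. H2AC1, H2BC1 and H1-6 encode histones known from the male germ line. H2AC1 and H2BC1 are a divergent pair at the edge of the largest chromosome 6 cluster with no peak of any immunoprecipitated library within 6638 bp. H1-6 lies inside the annotated body of H2BC4 and had its nearest peak at a median of 3628 bp, with 1993 bp in the library that came closest. H1-1, H4C6 and H4C7 had medians of 2729, 4962 and 2773 bp. H1-1 neighbours H3C1, which was held in 15 libraries.

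**Figure D2:**
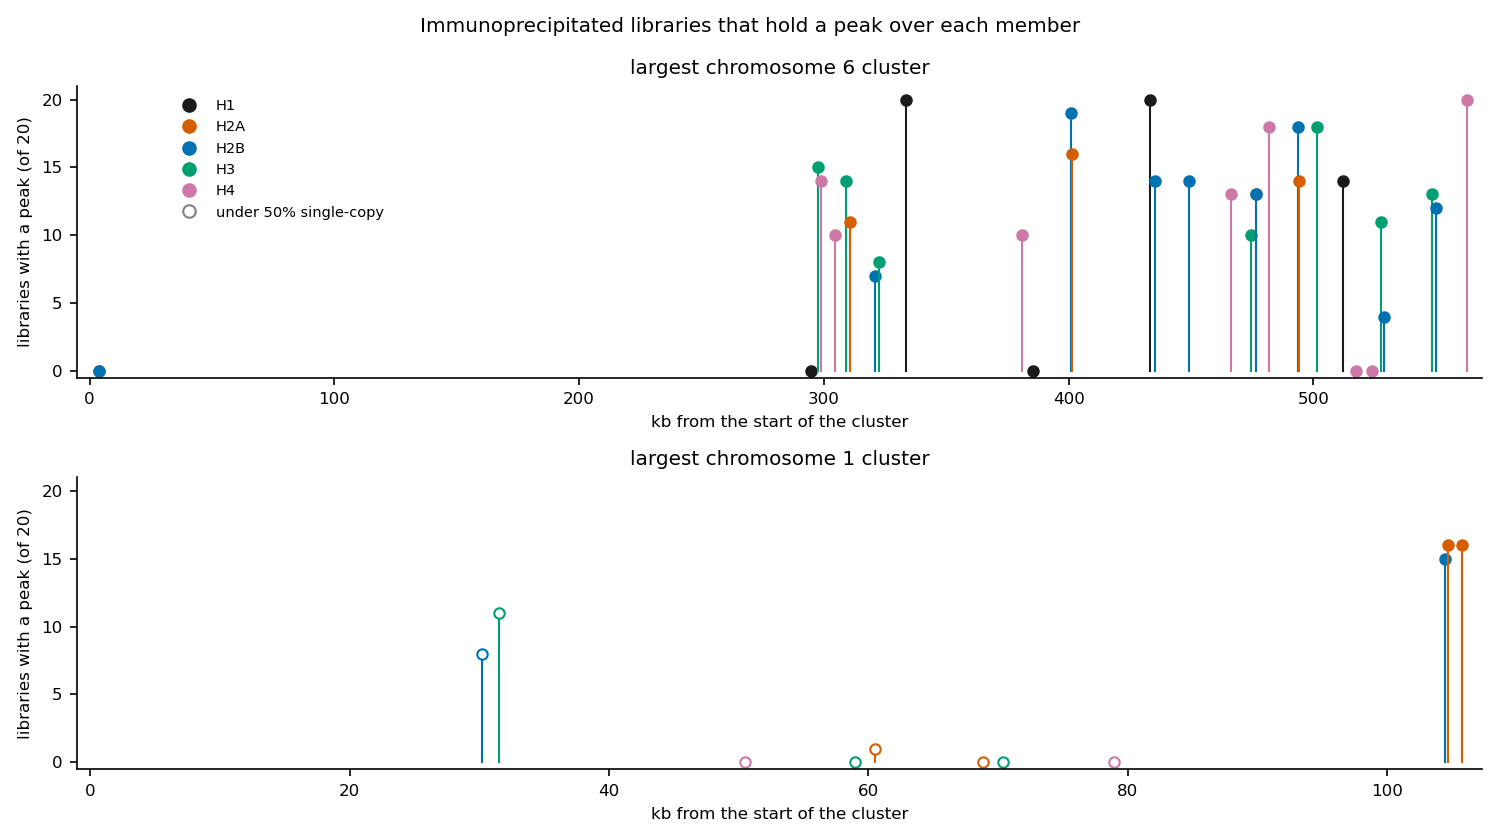
Number of immunoprecipitated libraries (0 to 20, vertical axis) that held a peak in the window of each member, along the largest chromosome 6 and the largest chromosome 1 cluster (horizontal axis, distance from the start of the cluster). Open symbols are members with under 50% single-copy words, all in the chromosome 1 cluster, and in the chromosome 6 cluster the point of H1-1 at 0 stands beside that of H3C1 at 15.

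The 12 divergent H2A and H2B pairs were mostly marked as units. Over 12 pairs and 20 libraries, both genes had the same strongest peak in 121 of 240 cases (50.4%), both had a peak but a different one in 19 (7.92%), only 1 gene held a peak in 35 (14.6%) and neither did in 65 (27.1%). With starts at most 250 bp apart and windows that overlap, a shared peak is in part set by geometry. H2AC1 and H2BC1 made up 20 of the 65 cases in which neither gene held one.

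In 15 of 20 libraries members were covered more often 350 bp after the start than 350 bp before it, with the start itself less often covered. At 50 bp before the start 4.41% and 7.35% of the members were covered in the H4K12ac libraries of untreated cells, and at 350 bp after it 72.1% and 70.6%. In H4K12pr these values were 11.8% and 8.82% before the start and 66.2% and 61.8% after it, and in H3K18pr 16.2% and 8.82% before and 66.2% and 42.6% after. In all 15 libraries with any member covered at 50 bp before the start, coverage at 350 bp after it was higher, by 1.77 times (H3K18ac untreated replicate 1) to 16.3 times (H4K12ac untreated replicate 1), where over all protein-coding genes the ratio was 1.24 to 2.48. Summits of members up to 2000 bp long lay at a median of 333 and 334 bp after the start in H3K18pr. In H4K12pr the medians were 368 and 342 bp, and in untreated cells 267 and 179 bp (H3K18ac) and 211 and 206 bp (H4K12ac). Summits lay on both sides of the start, with 68.3% and 60.7% after it in H3K18pr and 76.9% and 70.3% in H4K12pr. Divergent pairs often share a peak, so a summit after the start of a gene can count as before that of its partner. The same holds for coverage before the start, and the part that belongs to neighbouring members was not measured. The other 5 libraries, the 4 butyryl ones and H4K12ac NaBu replicate 2, were covered more before the start than after it, with 10.3% against 4.41% and 7.35% against 2.94% in H3K18bu, 4.41% against 2.94% and 2.94% against 0% in H4K12bu, and 4.41% against 2.94% in H4K12ac. Gene windows of only 14 and 10 (H3K18bu), 12 and 6 (H4K12bu) and 10 members (H4K12ac) held a peak in these 5 libraries. Their shares around the start therefore rest on few genes. None of the 3 inputs covered a member at 350 bp after the start. With a median gene length of 502 bp, much of the profile beyond that distance lies past the gene.

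**Figure D3:**
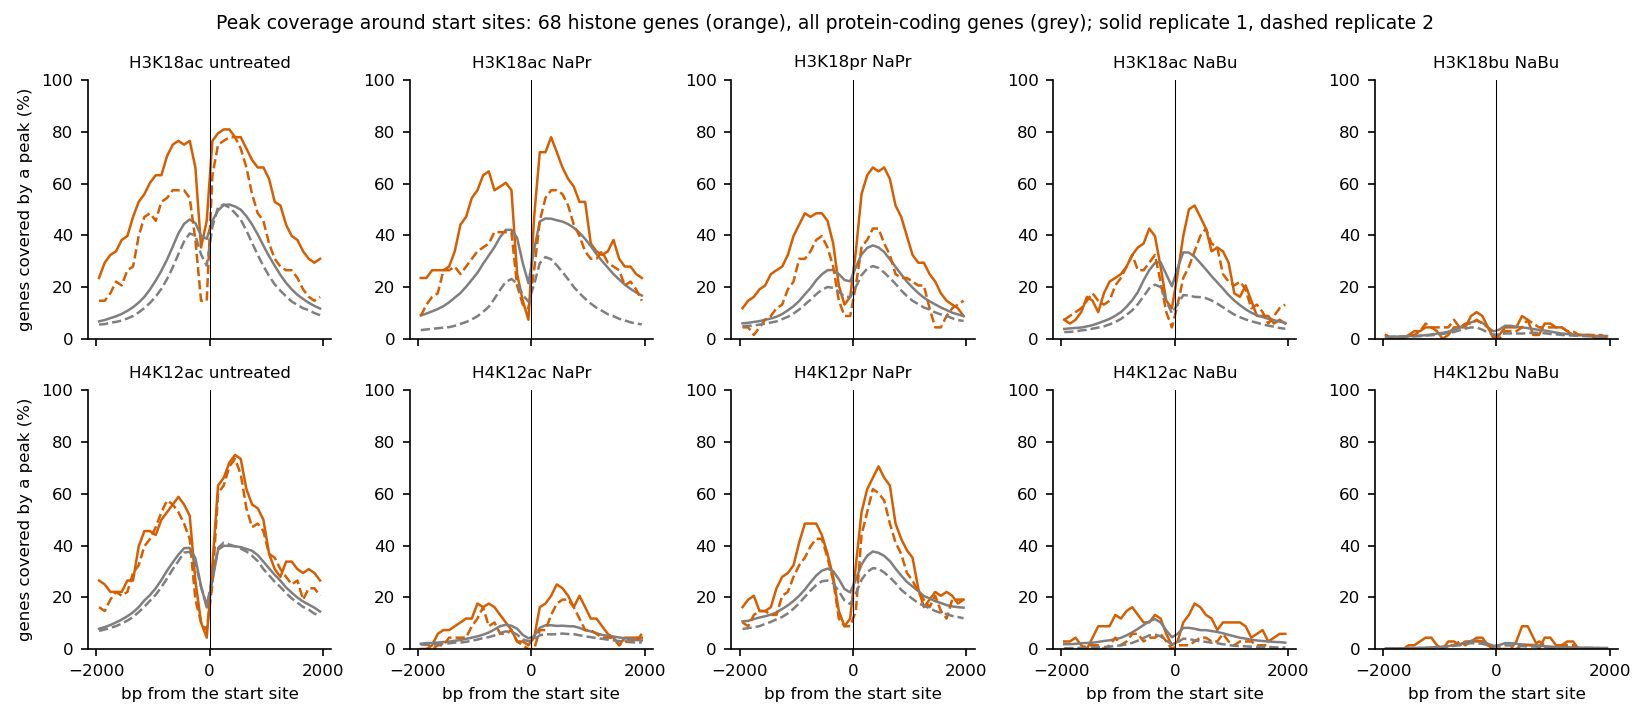
Percentage of the 68 members, and of all protein-coding genes, covered by a peak (vertical axis) in 100 bp steps from 2000 bp before to 2000 bp after the gene start (horizontal axis), 1 panel per group, with solid lines for replicate 1, dashed lines for replicate 2 and all protein-coding genes in grey. Coverage of the members (orange) dips just before the start and is highest 250 to 550 bp after it in the propionyl and acetyl groups of NaPr and untreated cells, and stays at or under 10.3% in the butyryl groups.

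Set beside other genes in windows of equal length around the start, the members were held more often than protein-coding genes at large and less often than the ribosomal protein genes, another family with high output. In gene windows, which are longer for most other genes, the order was another one: the members' share was below that of all protein-coding genes in 16 of 20 immunoprecipitated libraries and above it in 4, with differences of −32.7 to 4.50 points (median −5.70). In the start windows, 82.4% of members in both H3K18ac and 80.9% and 79.4% in the H4K12ac libraries of untreated cells held a peak, against 63.5% and 66.6% and 62.0% and 61.9% of all protein-coding genes. The members' share was the higher in 20 of 20 immunoprecipitated libraries, by 0.570 to 25.7 percentage points (median 15.5), and the lower against the 81 cytosolic ribosomal protein genes in 20 of 20, with differences of −38.4 to −10.2 points (median −20.2). Of 172 olfactory receptor genes on chromosome 11, silent in most tissues, 0% to 8.72% held a peak. Among the 8158 strongest peaks the members' share was above that of protein-coding genes in 14 of 20 libraries, with a median difference of 1.73 points, so among the strongest peaks the surplus was smaller. The members' share there was highest in H3K18ac of untreated cells (42.6% and 26.5%, against 26.2% and 25.7%). In inputs 4.41% to 11.8% of member start windows held a peak.

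**Figure D4:**
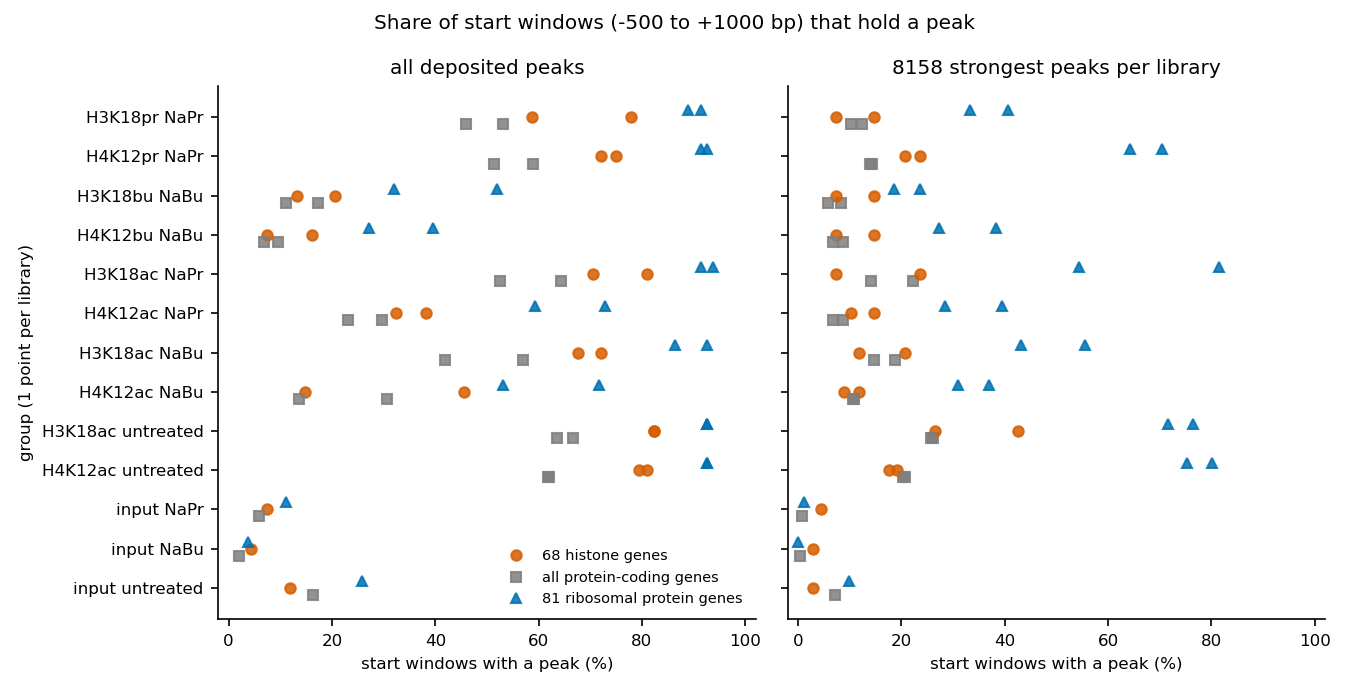
Percentage of start windows that held a peak (horizontal axis) in each of the 23 libraries, 1 point per library by group, for the 68 histone genes, the 81 ribosomal protein genes and all 20033 protein-coding genes, with all peaks (left) and with the 8158 strongest peaks of each library (right). With all peaks the histone points lie between the other groups in all 20 immunoprecipitated libraries, and with equal numbers they lie on either side of the protein-coding genes.

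Across groups, H3K18ac and H4K12ac of untreated cells held most members and the butyryl marks fewest. Of the 68 gene windows, 56 and 56 held a peak in the H3K18ac replicates, and 55 and 54 in those of H4K12ac, of untreated cells (82.4% ± 0 and 80.1% ± 1.04, SD, n = 2), against means of 81.5% and 80.6% of all protein-coding gene windows. In NaPr, H3K18pr held 53 and 41, H4K12pr 52 and 49, H3K18ac 55 and 47 and H4K12ac 26 and 27 (69.1% ± 12.5, 74.3% ± 3.12, 75.0% ± 8.32 and 39% ± 1.04, SD, n = 2), where all protein-coding genes had 75.7%, 78.8%, 78.3% and 69.3%. In NaBu, H3K18bu held 14 and 10, H4K12bu 12 and 6, H3K18ac 49 and 46 and H4K12ac 31 and 10 (17.6% ± 4.16, 13.2% ± 6.24, 69.9% ± 3.12 and 30.1% ± 21.8, SD, n = 2), and all protein-coding genes 31.5%, 18.7%, 71.5% and 46.5%. The members' mean was thus under that of all genes in every group but H3K18ac of untreated cells. These gene windows are longer for most other genes. In start windows of equal length the members' share was the higher in 20 of 20 immunoprecipitated libraries. The 2 H4K12ac NaBu lists held 88658 and 11680 peaks, and the 4 butyryl lists 8158 to 22497. With the 8158 strongest peaks of each library, H3K18ac of untreated cells held 34.6% ± 11.4 of the members and the other 9 groups between 11% and 22.1%, against 33.2% and 16.1% to 27.9% of all protein-coding genes.

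To compare marks and treatments, members were counted that held a peak in both replicates of one group and in neither of the other, beside the share of all 20033 protein-coding genes for which that was so. Gene windows were used for both, and these are longer for most other genes (median gene length 502 bp for members, 27471 bp for all). Shares of members and of all genes are therefore not of like windows, and what window length contributes was not measured. With 2 libraries against 2 no permutation of libraries can pass a threshold for a single gene. Reads, which a test on counts would need, were not analysed here, so these counts are descriptions. The acetyl groups of treated cells enter both the comparison with the acyl mark and that with untreated cells, and the comparisons are therefore not independent.

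For H3K18 in NaPr, propionyl and acetyl lists held largely the same members. Of all 68, 35 were held in all 4 lists. No member was held by H3K18pr alone (0.909% of all genes) and 1 by H3K18ac alone (1.84% of all genes), H4C9, with −log10 p of 20.2 and 3.12. Without H3K18ac NaPr replicate 1, 4 members were held by H3K18pr alone (4.45% of all genes) and 1 by H3K18ac alone (2.99%). The acetyl side then rests on replicate 2 only, which is a looser rule in both directions.

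For H4K12 in NaPr, 15 members were held by H4K12pr alone and none by H4K12ac alone. The 15 are 22.1% of the members, against 6.91% of all genes, and the reverse was seen in 1.46% of all genes. They were 5 of H2A, 5 of H2B, 4 of H3 and 1 of H4, none of H1. H2AC12 had −log10 p of 23.4 and 10.7 and folds of 7.56 and 5.13 in the H4K12pr replicates. The divergent pair H2AC11 and H2BC11 shared its peaks, with −log10 p of 9.76 and 8.77. The H4K12pr and H4K12ac lists held like numbers of peaks (165556 and 122532 against 144275 and 130361), but the H4K12pr peaks covered 3.71% and 2.64% of the genome and those of H4K12ac 1.45% and 1.24%. After removal of peaks over input peaks 16 members were held by H4K12pr alone. Among the 8158 strongest peaks 1 member was held by H4K12pr alone (1.47%, against 5.26% of all genes) and none by H4K12ac alone (2.27% of all genes), so that the members were no longer above all genes. This comparison coincides with the run tag and cannot be told apart from it.

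For H3K18 in NaBu, 28 members were held by H3K18ac alone (41.2%, against 23.9% of all genes) and none by H3K18bu alone (0.0300% of all genes). They were 1 of H1, 7 of H2A, 11 of H2B, 5 of H3 and 4 of H4, led by H2BC6 with −log10 p of 10.3 and 12.9 in H3K18ac, and by H3C1 and H4C1, which shared peaks of 11.5 and 8.97. The H3K18bu lists held 22059 and 22497 peaks and the H3K18ac lists 116459 and 60344. With the 8158 strongest peaks of each, 1 member (1.47%) was held by each group alone, against 1.00% of all genes for H3K18bu and 5.51% for H3K18ac.

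For H4K12 in NaBu, 2 members were held by H4K12ac alone (2.94%, against 6.16% of all genes), H2BC12 and H4C12, with −log10 p from 2.01 to 5.56, and none by H4K12bu alone (0.0300% of all genes). With equal numbers there was none on either side (0.909% of all genes for H4K12bu and 1.86% for H4K12ac). The 3 members held in all 4 lists were the 3 held in every immunoprecipitated library.

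For NaPr against untreated cells, H3K18ac held 47 members in all 4 lists. No member was held in NaPr alone (0.499% of all genes) and 1 in untreated cells alone (0.864% of all genes), H2BC18, of which 28.4% of the words are single-copy, with −log10 p of 34.7 and 21.6. Without the NaPr library that stood apart, 9 of the 68 members were held in untreated cells alone (6.96% of all genes) and none in NaPr alone (1.53%). The NaPr side then rests on replicate 2 only, a looser rule under which the share of all genes rose too. Whether the higher count is due to the library or to the rule was not tested.

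H4K12ac held 20 members in untreated cells alone (29.4%, against 7.90% of all genes) and none in NaPr alone (1.23% of all genes). They were 5 of H2A, 5 of H2B, 7 of H3 and 3 of H4. H2AC16 had −log10 p of 30.5 and 22.8 in the untreated replicates, H2BC13 24.2 and 22.1, and H4C4 19.5 and 23.6. All 3 were held by both H4K12pr libraries in NaPr, where neither H4K12ac library held a peak. The H4C4 window also held a peak in the NaPr input, with a fold of 3.36, beside 3.49 and 3.07 in H4K12pr. The untreated lists were longer (208823 and 191194 peaks, against 144275 and 130361), and with equal numbers 5 members were held in untreated cells alone (7.35%, against 8.61% of all genes) and 2 in NaPr alone (2.94%, against 1.55%). This comparison falls within 1 run tag.

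For NaBu against untreated cells, the lists of both groups hold cnt in their names, so that in these comparisons the treatment of the libraries labelled NaBu is in doubt. H3K18ac held 5 members in untreated cells alone (7.35%, against 3.33% of all genes) and none in NaBu alone (0.514% of all genes). H3C11 and H4C13 shared peaks of −log10 p 36.9 and 24.9 there, and H3C3 had 30.7 and 7.66. The other 2, H2BC3 and H2BC9, named as the rest of a count of 5, had 30.7 and 7.02, and 54.4 and 4.86. With equal numbers 10 members were held in untreated cells alone (14.7%, against 7.57% of all genes) and none in NaBu alone (2.79% of all genes).

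H4K12ac held 23 members in untreated cells alone (33.8%, against 13.8% of all genes) and none in NaBu alone (0.115% of all genes), 1 of H1, 8 of H2A, 6 of H2B, 5 of H3 and 3 of H4. H2BC15 had −log10 p of 48.0 and 29.5 in untreated cells, H2AC6 39 and 24.2 and H2BC17 24.8 and 19.6. The partner of H2BC15 across their shared promoter, H2AC15, was held in all 4 lists, so that in NaBu the peak lay on the H2AC15 side only. With equal numbers 5 members were held in untreated cells alone (7.35%, against 8.48% of all genes) and 1 in NaBu alone (1.47%, against 2.65%). NaBu libraries carry a run tag of their own, so labelled treatment and tag cannot be told apart here.

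Over whole clusters, the measure was the percentage of bp covered by peaks divided by the percentage of the genome covered in the same library. The largest chromosome 6 cluster was covered above the genome in 20 of 20 immunoprecipitated libraries, 1.64 to 4.76 times (median 3.17), and all 20 were above the 3 inputs (1.09 to 1.61). The ratio still moved with list length: with the 8158 strongest peaks of each library it was 1.25 to 7.23, and H3K18pr (1.69 and 1.36), H4K12pr replicate 1 (2.64) and H3K18ac NaPr replicate 1 (1.25) lay under the NaPr input (2.73). Untreated H3K18ac libraries had 4.76 and 3.15, and untreated H4K12ac libraries 3.22 and 3.11. In NaPr, H3K18pr had 2.58 and 2.43, H3K18ac 2.74 and 4.06, H4K12pr 1.92 and 2.10, and H4K12ac 1.83 and 1.64. In NaBu, H3K18bu had 3.54 and 3.20, H3K18ac 3.22 and 4.19, H4K12bu 4.75 and 3.90, and H4K12ac 2.53 and 4.56. The short butyryl lists held few members, but their ratios for this cluster overlapped those of the acetyl lists labelled with the same treatment. Start windows were covered more than the rest of the cluster in all 20 libraries (median 32.2% against 2.23%).

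**Figure D5:**
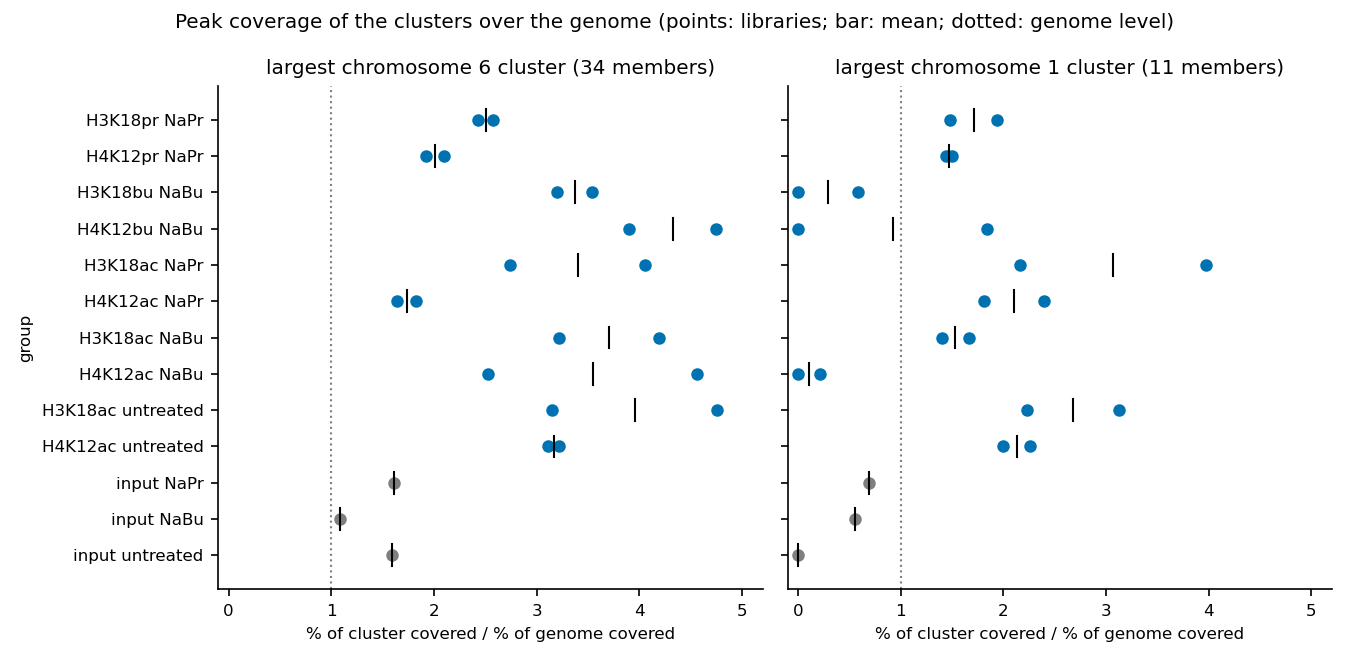
Coverage of the largest chromosome 6 and the largest chromosome 1 cluster by peaks, as fold over the coverage of the genome (horizontal axis, dotted line at 1), 1 point per library by group with a bar at the mean and the inputs in grey. All 20 immunoprecipitated libraries lie above the inputs in the chromosome 6 cluster, while 3 libraries of treated cells are at 0 in the chromosome 1 cluster.

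No comparison of cluster coverage passed a two-sided exact permutation test over libraries, adjusted by Benjamini-Hochberg over 8 tests. Libraries were permuted within histone site and treatment for acyl against acetyl marks, and within histone site for treated against untreated cells. For H3K18 against H4K12 they were permuted within acyl group and treatment. In the chromosome 6 cluster acyl marks had a mean of 3.05 and acetyl marks of the same treatments 3.10 (exact permutation p = 0.914, adjusted 0.944, smallest possible 0.00154). NaPr acetyl libraries had 2.57 and untreated ones 3.56, lower at both histone sites (exact permutation p = 0.111, adjusted 0.306, smallest possible 0.0556). Without H3K18ac NaPr replicate 1 this difference was −0.662 (exact permutation p = 0.278), and the other comparisons that use that library kept their direction. Acetyl libraries labelled NaBu, whose list names hold cnt, had 3.62 against 3.56 (exact permutation p = 0.944, adjusted 0.944), and H3K18 3.39 against 2.96 for H4K12 (exact permutation p = 0.247, adjusted 0.395). The comparisons with untreated cells, of 36 arrangements, cannot reach 0.05.

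In the largest chromosome 1 cluster, which holds the 8 members with few single-copy words, coverage was 0 to 3.97 times that of the genome and above 1 in 15 of 20 libraries. It was 0 in replicate 2 of H3K18bu, H4K12bu and H4K12ac in NaBu. Acetyl libraries labelled NaBu (list names with cnt) had a mean of 0.819 (1.40 and 1.66 for H3K18ac, 0.218 and 0 for H4K12ac), below all 4 untreated libraries, with a mean of 2.41 (3.13 and 2.23, 2.26 and 2.00). The exact permutation p was 0.0556, the smallest this design allows, and 0.306 after adjustment. NaPr acetyl libraries had 2.58 (exact permutation p = 0.778, adjusted 0.944). Acyl marks had 1.10 against 1.70 (exact permutation p = 0.153, adjusted 0.306), and H3K18 1.85 against 1.35 for H4K12 (exact permutation p = 0.120, adjusted 0.306).

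The genes known to serve the clusters were taken from lists. Of 25 regulators of histone genes and of histone supply, 6 held a peak at their start in 15 or more of 20 libraries, and the median was 12.0 libraries, against 13.0 for the 68 members. NPAT, the coactivator of histone genes, held one in 16 libraries, SLBP, which binds the stem-loop, in 14, CASP8AP2, a partner of NPAT in the histone locus body, in 11 and LSM11, a part of the U7 particle that cuts the 3′ end, in 10. The members' share held was above that of the regulators in 6 libraries and below it in 14, but above in 10 and below in 10 when the 8 members with few single-copy words were left out. Of 12 replication-independent histone genes, which lie outside the clusters and supply histones in all phases of the cell cycle, 5 held a peak in 15 or more libraries (median 13.5). H3-3B, for the variant H3.3, held one in 19 libraries at a median percentile of 97, above that of every clustered member, H2AZ1 in 15 and H3-3A in 13. The share of members held was below that of these genes in 20 of 20 libraries, and in 18 without the 8 members.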

How the data were processed

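Peaks came from 20 immunoprecipitated and 3 input libraries. The authors trimmed, aligned and called each library on its own against input with an ENCODE-type pipeline on GRCh38.p13. The submitters' processing notes name bcl2fastq 2.17.1, cutadapt 1.8.1, Bowtie2 2.3.1 and MACS2 2.1.0, and peaks were called at p 0.01 and filtered for blacklisted regions. Each deposited peak has a fold, the ratio of pileup to local background. The peak p-values and q-values are deposited as −log10. Reads were not analysed here, so depth is unknown, and list length stands in for it (2187390 peaks in all). Replicates are not stated to be separate cultures, so p-values measure only the spread between these libraries. Which control the 3 input lists had is not given in the sources used here.

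Groups came from the sample labels, also for the 4 acetyl libraries labelled NaBu whose list names hold cnt. Computations used Python 3.11.15, numpy 2.4.6, scipy 1.17.1 and matplotlib 3.10.9. A gene held a peak if at least 1 bp fell in its body with 500 bp added on either side, and a start window ran from 500 bp before to 1000 bp after the start. Percentiles rank the strongest peak in the start window by −log10 p among 20033 protein-coding genes. Single-copy words are 50-mers that occur once in the reference. Cluster coverage was compared with two-sided exact permutation tests over libraries, adjusted by Benjamini-Hochberg over 8, and the scripts were tested on simulated data with known answers. Alternatives were q under 0.05, the 8158 strongest peaks per library, removal of peaks over input peaks, summits, no flank, single-copy members, percent covered, a replicate block and leaving out each replicate. Genes were named by rule: per histone type the 2 held by most and the 1 held by fewest libraries, per comparison up to 3 with the strongest one-sided peaks, fixed names in 2 lists (1 gene of the replication-independent list is not reported here and was left out of its counts), and those said to be chosen after their values were seen. The members, lists and tests were chosen with earlier results of these data known. Same-numbered replicates did not deviate together (13 pairs of groups, correlations −0.0179 to 0.0921), so a number pairs nothing.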

Additional observations from a re-analysis of the deposited data

Results flagged for a closer look

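In the largest chromosome 6 histone cluster, the comparison of propionyl with acetyl in NaPr went in opposite directions at the 2 histone sites. For H3K18, coverage over the genome was 2.58 and 2.43 for propionyl and 2.74 and 4.06 for acetyl, a difference of −0.899. For H4K12 it was 1.92 and 2.10 for propionyl and 1.83 and 1.64 for acetyl, a difference of 0.277. The replicates did not overlap at either site, but the difference between the sites was not tested. With the 8158 strongest peaks of each library the H4K12 order turned (2.64 and 3.03 for propionyl, 4.45 and 5.18 for acetyl), the H3K18 replicates overlapped (1.69 and 1.36, against 1.25 and 7.23), and the opposite directions were no longer seen. The H3K18ac value of 2.74 belongs to the library that stood apart. Without it the H3K18ac value was 4.06, further above both H3K18pr values. Propionyl libraries carry a run tag of their own.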

How the results depend on the processing

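Of 144 alternative values of cluster coverage 122 kept their direction and side of the threshold, and of 80 of the shares of members held 55 stayed within the spread between replicates. The causes of the changes were not tested. Depth is unknown, so what it limits was not measured.

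With peaks at q under 0.05, 4 coverage differences passed the exact permutation test: in the chromosome 6 cluster acyl minus acetyl was −0.868 (adjusted 0.0206) and H3K18 minus H4K12 0.764 (0.0206), and in the chromosome 1 cluster −0.941 (0.0206) and 0.665 (0.0309). Over all alternatives the adjusted p ranged from 0.0206 to 1.00 for the first, 0.0206 to 0.889 for the second, 0.0206 to 0.833 for the third and 0.0309 to 0.889 for the last. At q under 0.05 only 1 member held a peak in each H4K12bu list, 2 in H4K12ac NaBu replicate 2, and 10 and 6 in H3K18bu. The propionyl lists held 41 to 52, so several of the ratios compared at this threshold rest on few members. With equal numbers of peaks, chromosome 6 reversed to 0.103 for NaPr minus untreated, −0.365 for NaBu minus untreated and −0.316 for H3K18 minus H4K12, and chromosome 1 to 1.46 for acyl minus acetyl. Without peaks over input peaks the chromosome 6 acyl minus acetyl difference was 0.307. As percent covered, NaBu minus untreated was −5.66 points in chromosome 6 and NaPr minus untreated −1.29 points in chromosome 1. Leaving out each replicate gave, in chromosome 6, −0.299 to 0.211 (acyl minus acetyl), −1.40 to −0.592 (NaPr), −0.447 to 0.573 (NaBu) and 0.226 to 0.634 (H3K18 minus H4K12), and in chromosome 1 −0.835 to −0.375, −0.274 to 0.629, −1.81 to −1.36 and 0.324 to 0.691. Without H4K12bu NaBu replicate 1 the chromosome 1 differences of −0.835 and 0.691 passed (adjusted exact permutation p = 0.0370 and 0.0494). Same-numbered replicates share only a number: with the replicate block the coverage differences were as without it, −0.0439 (exact permutation p = 0.914) for acyl minus acetyl in chromosome 6, and no call changed.

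The share of members held differed by −5.88 points (H3K18pr minus H3K18ac), 35.3 (H4K12pr minus H4K12ac), −52.2 (H3K18bu minus H3K18ac) and −16.9 (H4K12bu minus H4K12ac), and between NaPr and untreated by −7.35 (H3K18ac) and −41.2 (H4K12ac), and between NaBu and untreated by −12.5 (H3K18ac), with H4K12ac going from 80.1% to 30.1%. In the same order, equal numbers of peaks gave 9.56 for the second, −4.41 for the third, 1.47 for the fourth, −19.1, −5.88, −18.4 and −7.35 for the last 4. With q under 0.05, H4K12pr minus H4K12ac was 39, H4K12ac NaPr minus untreated −44.9 and H3K18ac NaBu minus untreated −21.3. With single-copy members H4K12pr was 38.3, H3K18bu −56.7 and H4K12ac NaPr −44.2. With no flank H3K18bu was −47.8, H4K12ac NaPr −47.8 and H3K18ac NaBu −22.8. Without peaks over input peaks H4K12ac NaPr was −36.0 and H3K18ac NaBu −2.94, and with summits −43.4 and −8.82. Leaving out each replicate gave −14.7 to 2.94, 33.1 to 37.5, −55.1 to −49.3, −32.4 to −1.47, −13.2 to −1.47, −41.9 to −40.4, −14.7 to −10.3 and −65.4 to −34.6, the fourth and last depending on which H4K12ac NaBu replicate was left out.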
